A study of Mus musculus with 10 samples.

Results

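The genes described here build, load and release the secretory granules of hormone-producing cells. They were chosen by name, with earlier results of these data known, as 34 listed members. They were granins, prohormone-processing enzymes, granule membrane and exocytosis proteins, amine synthesis and transport genes, and ion channel genes of hormone cells. The less characterised Vwa5b2 and Disp2 were also listed. A member was measured where a probe set of the array named it and no other gene, and the probe set with the highest mean over the arrays was taken. Of the 34 members, 33 were measured, out of 18820 genes in all. Pcsk2, which encodes a second prohormone convertase, had no such probe set and was skipped. Vwa5b2 was the 1 member with several probe sets.

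The samples were sorted epithelial cells of mouse intestine. The labels name 2 reporter lines, and every sorted fraction was defined by both reporters. In Lgr5-EGFP-ires-CreERT2 mice, the Lgr5 promoter drives green fluorescence, and Lgr5 encodes a receptor of crypt base stem cells. In Ki67-TagRFP mice, a red fluorescent protein is joined to the end of the Ki67 protein, which cycling cells contain. There were 4 groups: cells with high Lgr5 reporter signal that were Ki67-high (2 arrays) or Ki67-low (2 arrays), and cells with medium Lgr5 reporter signal that were Ki67-high (4 arrays) or Ki67-low (2 arrays). All 4 carried the same reporters, and none was sorted on a marker of hormone cells. The sources used here do not give the age of the mice, the part of the intestine or the number of animals behind an array. Whether replicates came from separate animals is not stated either, so the p-values reflect only how far these samples spread, and that spread may be technical.

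Enteroendocrine cells are the scattered hormone cells of the intestinal epithelium. They store peptide hormones or serotonin in dense-core granules: granins help to form the granule, convertases and carboxypeptidase E cut the prohormones inside it, and a calcium-triggered fusion machinery releases the contents. Most of these proteins also serve neurons and the endocrine pancreas, and several serve secretion in general.

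In Lgr5-medium Ki67-low cells, 32 of the 33 members had their highest group mean (Vgf had its highest in Lgr5-high Ki67-low cells). There, 21 members were higher than in Lgr5-medium Ki67-high cells and 0 were lower, against 2.65% and 0.93% of all genes. Chga was 7.12-fold higher, Cpe 6.14-fold, Chgb 6.12-fold, Tph1 5.19-fold and Ptprn2 4.11-fold. Between the fractions of the Lgr5-high cells, 0 members passed the limma test, where 0.00531% of all genes passed. That count says nothing particular of the members. An unadjusted p under 0.05 was reached by 3 members and by 853 of all genes. The rest of the text takes the promoters, then the roles in turn, then the other comparisons.

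Promoter sequence was available for 23 of the 33 members, 13 of them among the 21 that were higher, in RefSeq (mouse assembly GRCm38.p6), as windows of 300 bases, 250 before and 50 after the start of the transcript. Each window was searched on both strands. TGACGTCA, the cAMP response element known from several granin promoters, occurred in 4 of the 23 members (Chgb, Scg2, Pcsk1 and Slc18a2), and in 2.03% of all 27025 genes with a window. Its first 5 letters, TGACG, which overlap every TGACGTCA, occurred in 13 of the 23 and in 23.0% of all genes. The windows around the word in 3 of these genes, and around TGACG in Chga, the member with the largest difference, are printed below as the upstream sequence of 3 granins and a convertase; the match of Slc18a2 lies after its start and is not shown. Capitals mark the matched word, 25 bases are shown on either side, and each line runs 5′ to 3′ on the strand of the gene.
Chga, chr12:102554872-102554926, plus strand, word 44 to 40 bases before the start: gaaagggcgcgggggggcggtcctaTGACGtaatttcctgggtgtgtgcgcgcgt
Chgb, chr2:132781545-132781602, plus strand, word 72 to 65 bases before the start: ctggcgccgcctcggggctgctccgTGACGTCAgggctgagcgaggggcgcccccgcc
Scg2, chr1:79440062-79440119, minus strand, word 68 to 61 bases before the start: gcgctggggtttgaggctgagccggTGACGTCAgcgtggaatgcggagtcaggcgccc
Pcsk1, chr13:75089754-75089811, plus strand, word 78 to 71 bases before the start: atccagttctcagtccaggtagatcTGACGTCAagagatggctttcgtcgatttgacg

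The full word occurred in members that passed the test in the Lgr5-medium cells (Chgb and Pcsk1) and in members that did not (Scg2 and Slc18a2). Words of the CANNTG form, which basic helix-loop-helix factors bind, were also counted. CAGATG occurred in 2 of the 23 members and in 19.2% of all genes, and CATATG in 1 and in 4.48%. CAGCTG occurred in 10 of the 23 and in 18.3% of all genes, and CACCTG in 7 and in 22.6%. A match describes the letters of these windows and shows no binding.

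Some facts of the arrays bear on all that follows. Values are read as log2 expression, so that a difference of 1 is a 2-fold difference; array medians lay between 4.23 and 4.40. The background of the arrays was not used here, so a low value may lie near it. The epithelial gene Epcam lay between 11.39 and 11.79 on all arrays. Lgr5 followed its sort, at a mean of 9.38 and 10.22 in the Lgr5-high groups against 7.39 and 8.58 in the Lgr5-medium groups. The Mki67 transcript differed little between the Ki67-low and Ki67-high fractions, by -0.11 ± 0.13 (SE) in Lgr5-high cells and by -0.29 ± 0.12 in Lgr5-medium cells (limma adjusted p = 0.9998 and 0.249). Arrays also differed in the sexes they held. Xist was at 3.62 and 3.19 on replicates 1 and 2 of Lgr5-medium Ki67-high, and the Y-linked Eif2s3y was at 3.41 on replicate 1 of Lgr5-high Ki67-high. On the other 7 arrays both genes were above 6. Replicate 4 of Lgr5-medium Ki67-high correlated least with the other arrays on average (0.986).

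Each comparison was fitted with limma across all genes, with Benjamini-Hochberg adjustment over 18820 genes, and every adjusted p below comes from that fit. Between the Lgr5-medium fractions, 2.65% of all genes were higher in Ki67-low cells and 0.93% were lower, against 21 and 0 of the 33 members. With arrays centred on their medians, 417 genes were higher and 767 lower, instead of 499 and 175, and 18 members were higher. The members' median difference was 0.84, and all 33 were above 0, although Ddc fell below 0 with arrays centred on their medians. The median over all genes was -0.02, and 44.6% of genes were above 0. On the arrays themselves, 31 members had both Ki67-low arrays above all 4 Ki67-high arrays, as did 10.5% of all genes; Stx1a and Ddc overlapped. RNA was taken from whole fractions, so more hormone cells in a fraction and more RNA of these genes per cell cannot be told apart.

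Granins are acidic proteins that pack the granule core, and 3 of the 8 measured granins and granin-like members were higher. Chga, chromogranin A, read 9.90 and 10.12 on the Lgr5-medium Ki67-low arrays and 7.84, 7.04, 6.42 and 7.41 on the Lgr5-medium Ki67-high arrays. It read 8.14 and 7.72 in Lgr5-high Ki67-high cells, and 7.38 and 7.50 in Lgr5-high Ki67-low cells. Both Lgr5-medium Ki67-low arrays lay above the other 8, and the 4 Lgr5-medium Ki67-high arrays spread more widely than any other group for this gene, with replicate 3 lowest. The difference between the Lgr5-medium fractions was 2.83 ± 0.31 (SE, 2 against 4 arrays, adjusted p = 0.000711), which was rank 18 among all genes.

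Chgb, chromogranin B, gave nearly the same value on both Lgr5-medium Ki67-low arrays, 9.55 and 9.57. It read 7.30, 6.88, 6.52 and 7.09 on the Lgr5-medium Ki67-high arrays, 7.70 and 7.54 in Lgr5-high Ki67-high cells, and 6.88 and 7.07 in Lgr5-high Ki67-low cells. Again replicate 3 was the lowest of the Lgr5-medium Ki67-high arrays, and both Lgr5-medium Ki67-low arrays lay above the other 8. The difference was 2.61 ± 0.18 (adjusted p = 6.21e-05). Scg3, secretogranin III, which binds chromogranin A to the granule membrane, read 4.81 and 4.60 against 2.89 to 3.24, a difference of 1.58 ± 0.12 (adjusted p = 7.35e-05).

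The other 5 members of this role did not pass. Scg2, secretogranin II, came closest. It read 5.69 and 5.06 in Lgr5-medium Ki67-low cells and 4.64, 4.54, 4.03 and 4.78 in Lgr5-medium Ki67-high cells. The groups did not overlap, but its Ki67-low arrays lay further apart than those of Chgb, and the difference of 0.88 ± 0.21 had an adjusted p of 0.0551. Pcsk1n, which encodes the convertase inhibitor proSAAS, differed by 0.56 ± 0.14 (adjusted p = 0.0598) and Scg5, the chaperone of the second convertase, by 0.40 ± 0.11 (adjusted p = 0.11). Resp18 differed by 0.30 and Vgf by 0.18.

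All 3 measured processing enzymes were higher in Lgr5-medium Ki67-low cells. Cpe, carboxypeptidase E, which trims basic residues left by the convertases, read 6.65 and 6.69 there. It read 4.07, 4.15, 3.76 and 4.23 in Lgr5-medium Ki67-high cells, 4.57 and 4.25 in Lgr5-high Ki67-high cells, and 4.14 and 4.17 in Lgr5-high Ki67-low cells. The other 8 arrays fell within less than 1 log2 unit of each other, and the pair stood above them all. With 2.62 ± 0.14 (adjusted p = 1.54e-05), Cpe had the smallest adjusted p of the members.

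Pcsk1, prohormone convertase 1/3, read 7.78 and 7.83 in Lgr5-medium Ki67-low cells. It read 6.04, 6.03, 5.72 and 6.40 in Lgr5-medium Ki67-high cells, 6.24 and 6.30 in Lgr5-high Ki67-high cells, and 6.04 and 5.86 in Lgr5-high Ki67-low cells. The Lgr5-medium Ki67-high arrays overlapped both Lgr5-high groups, and the difference was 1.75 ± 0.15 (adjusted p = 0.0002). Pam, which amidates the ends of many peptide hormones, differed by 0.86 ± 0.13 (adjusted p = 0.00517), with 6.73 and 6.29 against 5.56 to 5.82. Of 12 other measured proprotein-processing genes listed for comparison, 0 passed the test, with a median difference of 0.12.

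**Figure D1:**
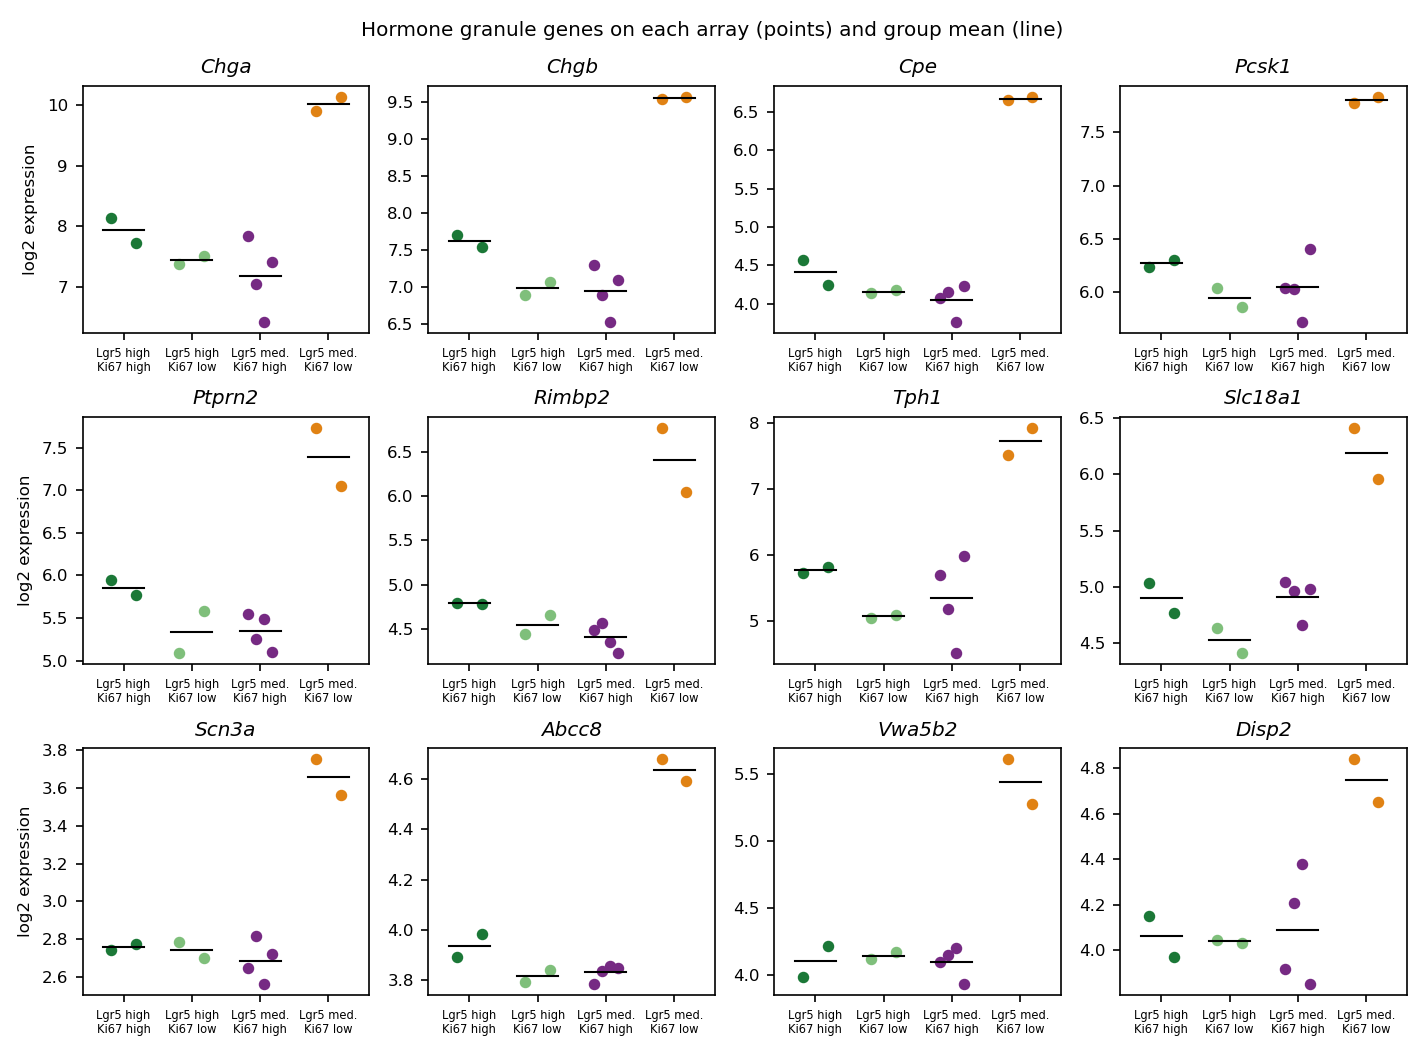
Log2 expression (vertical axis) of 12 granule genes on each of the 10 arrays, by sorted group (horizontal axis); points are arrays and lines are group means. The 2 Lgr5-medium Ki67-low arrays lie above the other 8 in every panel, by the widest margin in Chga, Chgb, Cpe and Tph1.

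Of the 13 granule membrane and exocytosis members, 9 were higher. Ptprn2, a transmembrane phosphatase-like protein of the granule membrane (phogrin), read 7.73 and 7.05 in Lgr5-medium Ki67-low cells. It read 5.55, 5.26, 5.49 and 5.10 in Lgr5-medium Ki67-high cells, 5.94 and 5.77 in Lgr5-high Ki67-high cells, and 5.09 and 5.59 in Lgr5-high Ki67-low cells. The Lgr5-medium Ki67-low arrays were the highest but differed from each other, and the difference was 2.04 ± 0.21 (adjusted p = 0.000412). Its relative Ptprn (IA-2) differed by 0.49 ± 0.10 (adjusted p = 0.0199), with 4.26 and 4.30 against 3.63 to 3.95.

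Rimbp2, which links calcium channels to the release site, read 6.77 and 6.05 in Lgr5-medium Ki67-low cells. It read 4.49, 4.57, 4.36 and 4.23 in Lgr5-medium Ki67-high cells, 4.80 and 4.78 in Lgr5-high Ki67-high cells, and 4.44 and 4.66 in Lgr5-high Ki67-low cells. Replicate 1 of the Ki67-low pair was the higher one, as for Ptprn2, and the Ki67-low mean was 3.99-fold higher (SE 0.18 in log2, adjusted p = 0.0002). The small GTPases of the Rab3 family, which tether granules, were not alike. Rab3c read 5.21 and 5.09 against 3.39 to 3.69 (difference 1.60 ± 0.13, adjusted p = 0.000113), while Rab3b differed by 0.28 ± 0.11 (adjusted p = 0.266) and Rab3a by 0.14 ± 0.10 (adjusted p = 0.583). Whether the differences of the relatives themselves differ was not tested.

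Genes of the fusion step followed. Cadps, which primes granules for release, differed by 1.51 ± 0.12 (adjusted p = 0.00012), and Snap25, a SNARE protein of the fusion complex, by 1.10 ± 0.11 (adjusted p = 0.000366). Syt13, a synaptotagmin, differed by 0.84 ± 0.13 (adjusted p = 0.0061), and Syt7, a calcium sensor of granule release, by 0.77 ± 0.12 (adjusted p = 0.00644). Syp, synaptophysin, passed narrowly, at 0.57 ± 0.13 (adjusted p = 0.0476), with 4.21 and 4.58 against 3.62 to 4.03. Stx1a, the SNARE partner of Snap25, differed by 0.20 ± 0.12 with overlapping arrays, and Cplx2, a complexin that clamps the fusion complex, by 0.46 ± 0.13 (adjusted p = 0.51 and 0.0876). Of 84 other measured exocytosis genes, 11 were higher and 0 lower, with a median difference of 0.08. The smallest p-values among them were those of Sytl5 (1.87 ± 0.18), Rab27a (1.56 ± 0.16) and Baiap3 (1.33 ± 0.14), 3 genes of granule docking and priming.

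**Figure D2:**
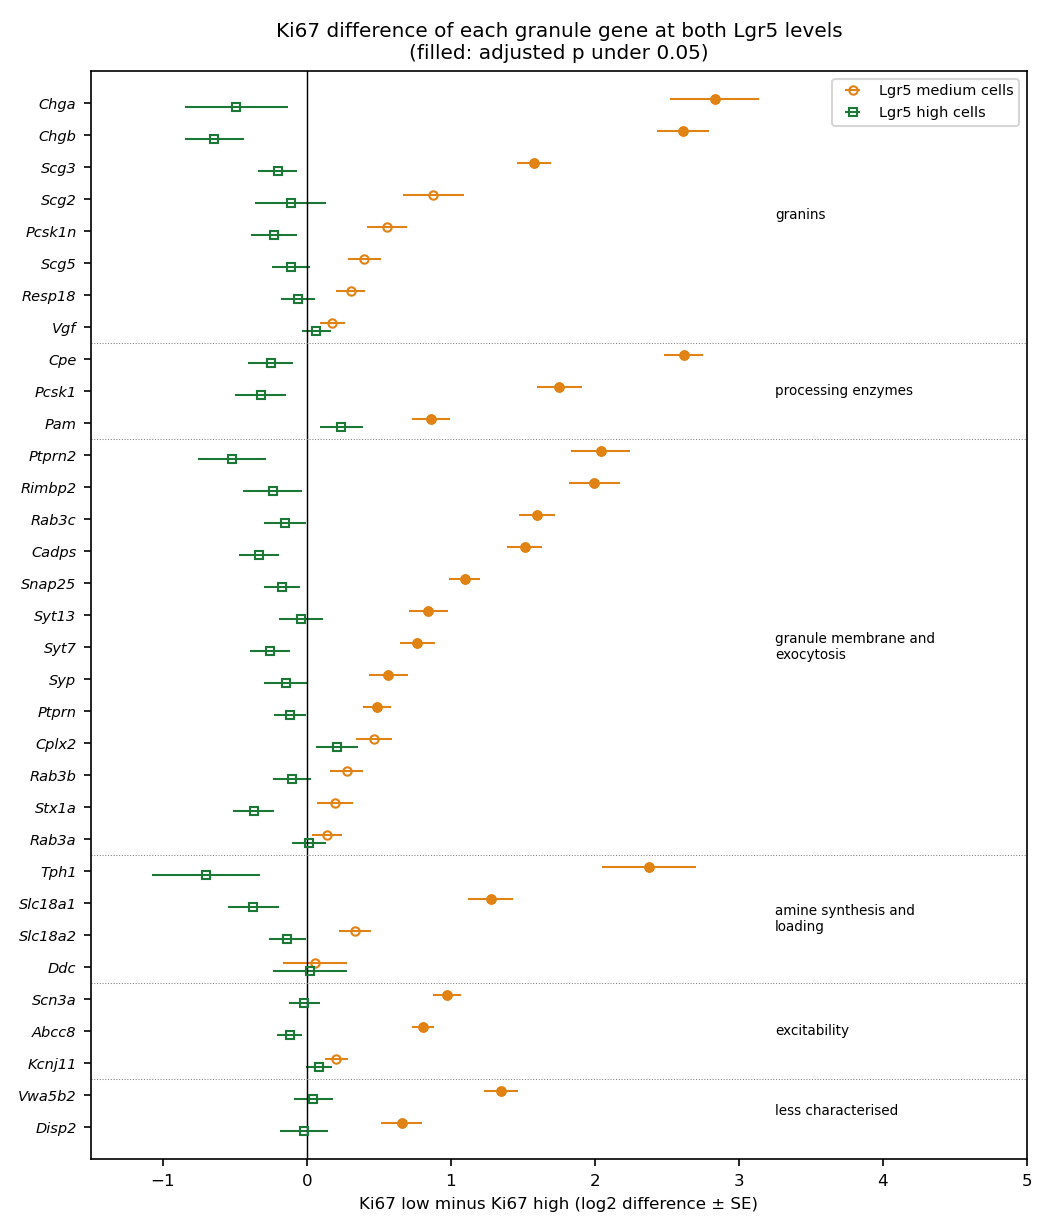
Difference between Ki67-low and Ki67-high cells (horizontal axis, log2, with SE bars) for each of the 33 granule genes (vertical axis, by role), in Lgr5-medium cells (circles) and Lgr5-high cells (squares); filled symbols passed the adjusted p of 0.05. All 33 circles lie above 0 (Ddc changes sign with arrays centred on their medians) and 21 are filled, while 26 squares lie below 0 and none is filled.

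Among the amine genes, which make serotonin and load it into granules, 2 of 4 were higher. Tph1, tryptophan hydroxylase, the rate-limiting enzyme of serotonin synthesis in the gut, read 7.52 and 7.92 in Lgr5-medium Ki67-low cells. It read 5.69, 5.18, 4.51 and 5.98 in Lgr5-medium Ki67-high cells, 5.72 and 5.81 in Lgr5-high Ki67-high cells, and 5.04 and 5.09 in Lgr5-high Ki67-low cells. As for Chga, the Lgr5-medium Ki67-high arrays spread widely with replicate 3 lowest, and none reached the Ki67-low pair. The difference was 2.38 ± 0.33 (adjusted p = 0.00272). On the 7 arrays with both Xist and Eif2s3y above 6, Tph1 no longer passed, and fewer of all genes passed. Of Lgr5-medium Ki67-high, these keep only the lowest and the highest array for Tph1, replicate 3 (4.51) and replicate 4 (5.98).

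Slc18a1, the vesicular monoamine transporter of endocrine cells, read 6.41 and 5.96 in Lgr5-medium Ki67-low cells. It read 5.04, 4.96, 4.66 and 4.98 in Lgr5-medium Ki67-high cells, 5.03 and 4.77 in Lgr5-high Ki67-high cells, and 4.64 and 4.41 in Lgr5-high Ki67-low cells. The pair again lay above all others, with a difference of 1.28 ± 0.15 (adjusted p = 0.00123). The neuronal transporter of the same family, Slc18a2, differed by 0.34 ± 0.11 (adjusted p = 0.169), with 3.70 and 3.92 against 3.31 to 3.62. Ddc, the decarboxylase that follows tryptophan hydroxylase and is also active in absorptive cells, read 9.01 and 9.38 against 9.10, 9.05, 8.79 and 9.60. Its Lgr5-medium groups overlapped, and its difference of 0.05 ± 0.22 (adjusted p = 0.945) changed sign when arrays were centred on their medians. Of 19 other amine genes, 1 was higher, Th (0.95 ± 0.13), and the median difference was -0.03.

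Of the excitability members, Scn3a and Abcc8 were higher and Kcnj11 did not pass. Scn3a, a voltage-gated sodium channel, read 3.75 and 3.56 in Lgr5-medium Ki67-low cells and 2.65, 2.81, 2.56 and 2.72 in Lgr5-medium Ki67-high cells. The 4 Lgr5-high arrays lay between 2.70 and 2.78, and the difference was 0.97 ± 0.09 (adjusted p = 0.000334). Abcc8, the sulfonylurea receptor subunit of the ATP-sensitive potassium channel, read 4.68 and 4.59 against 3.78, 3.83, 3.86 and 3.85, with 3.79 to 3.98 on the Lgr5-high arrays. Its 4 Lgr5-medium Ki67-high arrays lay closer together than those of any gene above, and the difference was 0.81 ± 0.07 (adjusted p = 0.000255). Kcnj11, the pore subunit of the same channel, differed by 0.20 ± 0.08 (adjusted p = 0.241). Of 31 other channel genes, 9 were higher and 0 lower, with a median of 0.14; the smallest p-values were those of the calcium channel subunits Cacna2d1 (1.54 ± 0.14) and Cacna1a (1.41 ± 0.15) and of the potassium channel Kcnb2 (0.92 ± 0.10).

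Both less characterised members were higher. Vwa5b2, which encodes a protein with a von Willebrand factor A domain, read 5.61 and 5.27 in Lgr5-medium Ki67-low cells. It read 4.10, 4.15, 4.20 and 3.93 in Lgr5-medium Ki67-high cells, 3.98 and 4.22 in Lgr5-high Ki67-high cells, and 4.12 and 4.17 in Lgr5-high Ki67-low cells. The 8 arrays outside the pair were within the same narrow band, and the difference was 1.35 ± 0.12 (adjusted p = 0.0002). Disp2, a relative of the Hedgehog release protein Dispatched, read 4.84 and 4.65 against 3.92, 4.21, 4.38 and 3.85, a difference of 0.66 ± 0.15 (adjusted p = 0.0369).

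**Figure D3:**
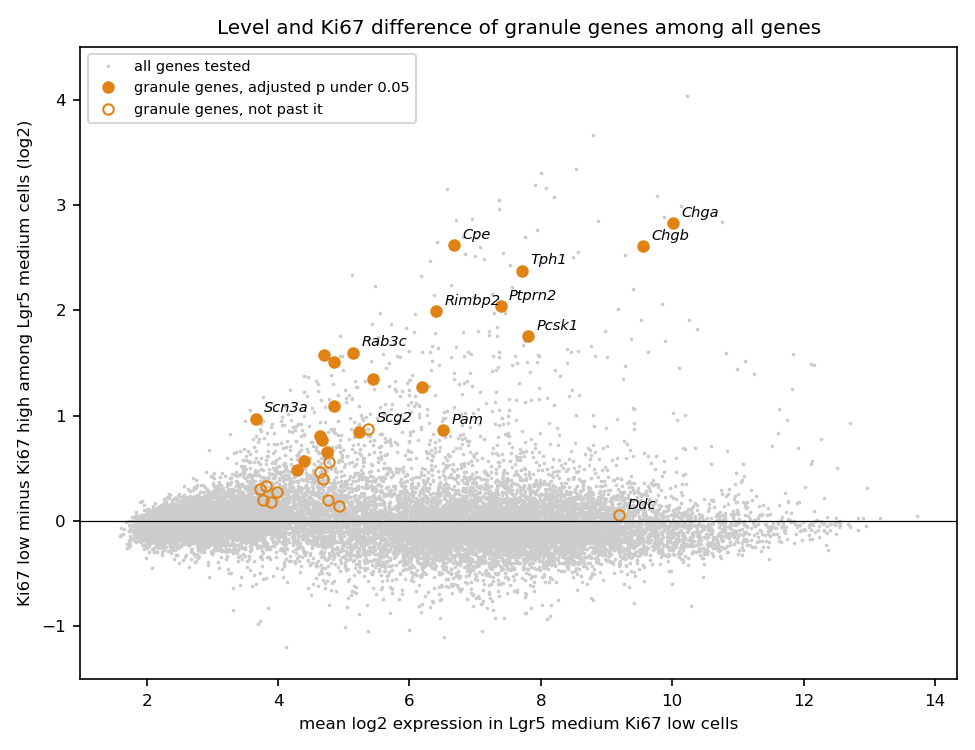
Difference between Ki67-low and Ki67-high cells among Lgr5-medium cells (vertical axis, log2) against mean log2 expression in Lgr5-medium Ki67-low cells (horizontal axis), for all 18820 genes (grey) and the 33 granule genes (orange; filled where adjusted p was under 0.05). The granule genes lie above 0 and reach 2.83 (Chga), with Ddc at 0.05 and below 0 with arrays centred on their medians; horizontal positions of different probe sets do not compare amounts of RNA.

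Of the 21 members that were higher, 13 were at least 2-fold higher, as were 230 genes that passed among all 18820. At least 4-fold higher were 5 members, a cut not counted over all genes. The smallest of these differences, that of Ptprn2, had rank 47 among all genes. The calls at the lower end depended on single arrays. Without replicate 1 of Lgr5-medium Ki67-low, which leaves 1 array there, Pam, Ptprn, Syp, Syt7, Syt13 and Disp2 did not pass. The members' median was then 0.72, and fewer of all genes passed. With only the 7 arrays on which both Xist and Eif2s3y were above 6, Tph1 was lost besides those 6, and fewer of all genes passed. The members' median there was 0.82. Ptprn, Syp and Disp2 also failed after quantile normalization, and when arrays were centred on their medians. Syp missed the threshold without any single array other than replicate 2 of Lgr5-medium Ki67-high, and Disp2 without any single array other than replicates 3 and 4 of that group.

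The same comparison within Lgr5-high cells asked whether the Ki67 fractions of the cells with the most Lgr5 differed in these genes. In limma, 0 of the 33 members passed and 3 had an unadjusted p under 0.05. Across all genes 0.00531% (1 gene, higher in Ki67-low cells) passed, with 853 at an unadjusted p under 0.05. The members' median difference was -0.14, with 26 below 0, against a median of -0.01 over all genes. Disp2 changed sign after quantile normalization, and Vwa5b2 when its probe sets were averaged. Without replicate 1 of Lgr5-high Ki67-high, 6 members changed sign. On the arrays, 15 members had both Ki67-low arrays below both Ki67-high arrays, as did 20.2% of all genes, and 2 had them above, as did 18.2% of all genes. The largest differences were those of Tph1 (-0.70 ± 0.38), Chgb (-0.64 ± 0.21), Ptprn2 (-0.52 ± 0.24) and Chga (-0.49 ± 0.36). Cpe differed by -0.25, Pcsk1 by -0.32 and Rimbp2 by -0.24, while Pam (0.24) and Cplx2 (0.21) were above 0. With 2 arrays a group the median SE of a difference was 0.13, and the adjusted p of every member was 0.9998.

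An interaction term tested the dependence of the Ki67 difference on Lgr5; it subtracts the difference among Lgr5-medium cells from that among Lgr5-high cells. It was negative for all 33 members, although Vgf and Rab3a turned positive after quantile normalization and these, Ddc and Kcnj11 with arrays centred on their medians. It passed for 16, against 1.03% of all genes below 0 and 0.0106% above, with a members' median of -0.93 and an all-gene median of 0.02. Chga (-3.32 ± 0.47, adjusted p = 0.00769), Chgb (-3.26 ± 0.27, adjusted p = 0.000666), Tph1 (-3.08 ± 0.50, adjusted p = 0.0159) and Cpe (-2.87 ± 0.21, adjusted p = 0.000305) had the largest values. Pam, Ptprn, Syp, Syt13 and Disp2, which were higher at Lgr5 medium, did not pass here. With only the 7 arrays on which both Xist and Eif2s3y were above 6, which leave 1 array in Lgr5-high Ki67-high (assumed to vary like the other groups), 0 members and 0 of all genes passed, while the members' median was -0.94. The smallest adjusted p of a member was then 0.0609 (shared by Chgb, Cpe and Cadps). Without replicate 1 of Lgr5-high Ki67-high alone, which leaves 1 array there, Chga, Syt7, Tph1, Slc18a1 and Scn3a did not pass. The members' median was then -0.90, and fewer of all genes passed than with all 10 arrays. Chga also missed without replicate 1 of Lgr5-high Ki67-low, as did Vwa5b2, and Tph1 missed without any single Lgr5-high array. Syt7 missed without any single array other than replicate 2 of either Ki67-low group and replicate 4 of Lgr5-medium Ki67-high, and Scn3a without replicate 2 of either Lgr5-high group.

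The comparison of Lgr5 levels among Ki67-low cells uses the same 2 Lgr5-medium Ki67-low arrays, so its values stand beside those above and do not add to them. Here 19 members were lower in Lgr5-high cells and 0 higher, against 2.18% and 0.659% of all genes. The members' median was -0.79, with Vgf alone above 0 (0.01) and Cplx2 joining it after quantile normalization or centring, and the all-gene median was 0.03. Tph1 differed by -2.65 ± 0.38 (adjusted p = 0.00421), Chgb by -2.58 ± 0.21 (adjusted p = 0.000232), Chga by -2.57 ± 0.36 (adjusted p = 0.00376) and Cpe by -2.51 ± 0.16 (adjusted p = 5.24e-05). Ptprn2 differed by -2.05, Rimbp2 by -1.86 and Pcsk1 by -1.85. On the arrays, 29 members had both Lgr5-high arrays below both Lgr5-medium arrays, as did 19.3% of all genes; 0 members had them above, as did 27.8% of all genes. Syt13 (-0.67, adjusted p = 0.0513) and Disp2 (-0.71, adjusted p = 0.0578) did not pass. Without replicate 1 of Lgr5-high Ki67-low, which leaves 1 array there, Pam, Ptprn, Syp and Syt7 did not pass. The members' median was then -0.73, and fewer of all genes passed. On the 7 arrays with both Xist and Eif2s3y above 6, Tph1 was lost besides those 4, and fewer of all genes passed. Syt13 and Disp2 passed with array weights and without replicate 3 or 4 of Lgr5-medium Ki67-high.

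Among Ki67-high cells, 0 of the 33 members passed between Lgr5 levels in the limma fit. Of all genes, 0.521% were higher and 0.414% lower in Lgr5-high cells. An unadjusted p under 0.05 was reached by 5 of the 33 members and by 2857 of the 18820 genes. That count says nothing particular of the members. The median difference, Lgr5 high minus Lgr5 medium, was 0.14, with 25 members above 0 (Ptprn, Rab3c and Vwa5b2 changed sign after quantile normalization, and Scn3a too with centring), and the all-gene median was 0.01. The members' median was 0.0521 after quantile normalization and 0.0599 with centring. Without replicate 2 of Lgr5-high Ki67-high, 5 members changed sign. In 9 members both Lgr5-high arrays lay above all 4 Lgr5-medium arrays, as in 14.2% of all genes. Chga differed by 0.75 ± 0.31 (adjusted p = 0.285), Chgb by 0.67 ± 0.18 (adjusted p = 0.11), Ptprn2 by 0.51 ± 0.21 (adjusted p = 0.278), Tph1 by 0.42, Cpe by 0.36 and Ddc by -0.37. With array weights, which give replicate 4 of Lgr5-medium Ki67-high the least weight (0.294), Chgb passed, as did 6.03% of all genes.

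The lowest mean fell in Lgr5-high Ki67-low cells for 16 members, in Lgr5-medium Ki67-high cells for 13 and in Lgr5-high Ki67-high cells for 4, and the pairs tested among these groups gave no call in a member. Lgr5-high Ki67-low was not tested against Lgr5-medium Ki67-high. Within Lgr5-medium Ki67-high, replicate 3 was the lowest array for 13 members and replicate 4 for 12. Within Lgr5-medium Ki67-low, replicate 1 was above replicate 2 for 19 members.

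**Figure D4:**
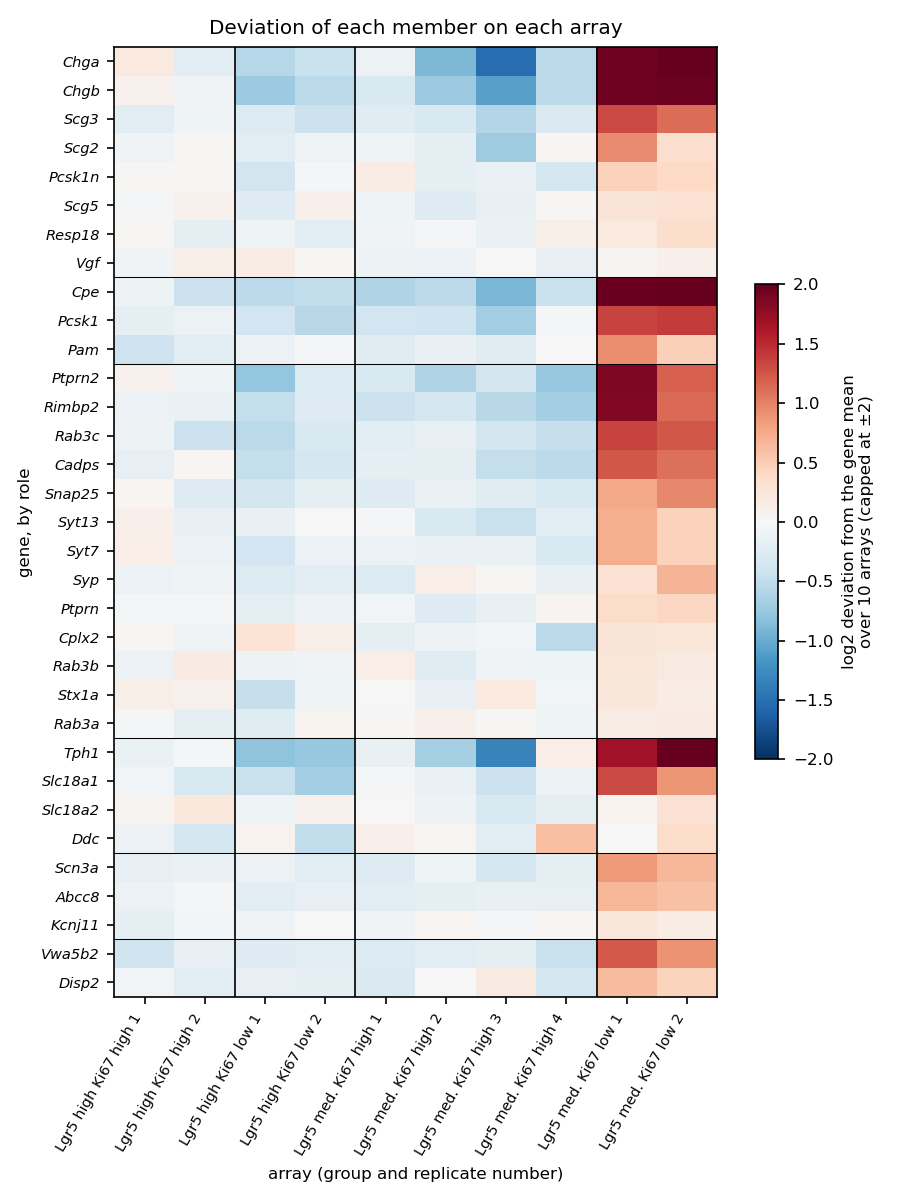
Deviation of each of the 33 granule genes (rows, by role) from its own mean over the 10 arrays (columns, by group and replicate), as log2 colour from blue (lower) to red (higher), capped at 2 either way. Red is concentrated in the 2 Lgr5-medium Ki67-low columns for the 21 members that passed, while Ddc is reddest in a Lgr5-medium Ki67-high column (9.60 on replicate 4).

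A total of 12 members passed in none of the 5 comparisons: Scg2, Scg5, Vgf, Resp18, Pcsk1n, Stx1a, Rab3a, Rab3b, Cplx2, Ddc, Slc18a2 and Kcnj11. Their differences between the Lgr5-medium fractions ran from 0.05 (Ddc) to 0.88 (Scg2), and their adjusted p-values from 0.0551 to 0.945. A value that misses the threshold does not show that these genes were equal between the fractions. Scg2 passed in the Lgr5-medium comparison without replicate 4 of the Ki67-high group or without replicate 2 of the Ki67-low group. Cplx2 passed there without that same replicate 4, and Pcsk1n without replicate 1 of the Ki67-high group; with array weights Scg2 and Pcsk1n passed. Pcsk1n also passed between Lgr5 levels among Ki67-low cells with array weights or without replicate 1 or 4 of Lgr5-medium Ki67-high.

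Markers of hormone cells and of other cell types were set beside the members. Between the Lgr5-medium fractions, 10 of 15 measured enteroendocrine hormone genes were higher in Ki67-low cells, with a median difference of 1.19, among them Gcg (3.08), which encodes glucagon-like peptides, Sst (2.99), which encodes somatostatin, and Gip (2.84). Of 22 regulators of the enteroendocrine lineage 13 were higher (median 1.10), among them Neurod1 (2.52) and Rfx6 (2.60). Mean levels of the hormone list were 6.46 and 6.56 on the Lgr5-medium Ki67-low arrays and 4.69 to 5.47 on the others.

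Markers of other secretory cells were higher too. Of 17 tuft cell markers 15 were higher (median 2.69), with list means of 6.39 and 6.99 against 4.03 to 4.79. Of 13 goblet cell markers 11 were higher (median 1.48), with 9.76 and 10.28 against 8.41 to 8.86. Of 10 Paneth cell markers 4 were higher (median 1.23). The Paneth list means, 10.35 and 11.05 against 9.48 to 10.33, almost met. No enterocyte marker passed of 13 (median 0.24). T cell markers did not pass either, at 0 of 11, but their median was 0.63, with list means of 4.87 and 5.62 against 4.06 to 5.21. Shared between lists were Sytl2 (goblet and exocytosis), Cartpt (hormone and enteric neuron), Hdc (mast cell and other amine) and Anpep (enterocyte and other processing). The part of these cells in the granule gene result was not tested.

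Neurons and mast cells share several granule genes with enteroendocrine cells. Enteric neuron markers lay between 3.26 and 3.40 on all arrays as a list, with a median difference of 0.01; 2 of 14 were higher, Ret (0.68) and Nefl (0.70). Of 12 mast cell markers 1 was higher, Kit (1.56), and the median was -0.01, with 6 above and 6 below 0. As a list they lay at 3.11 and 3.31 on the Lgr5-medium Ki67-low arrays and between 2.98 and 3.14 on the others. Enteric glia (0 of 6) and stromal markers (0 of 12) had medians of 0.03 and 0.04.

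**Figure D5:**
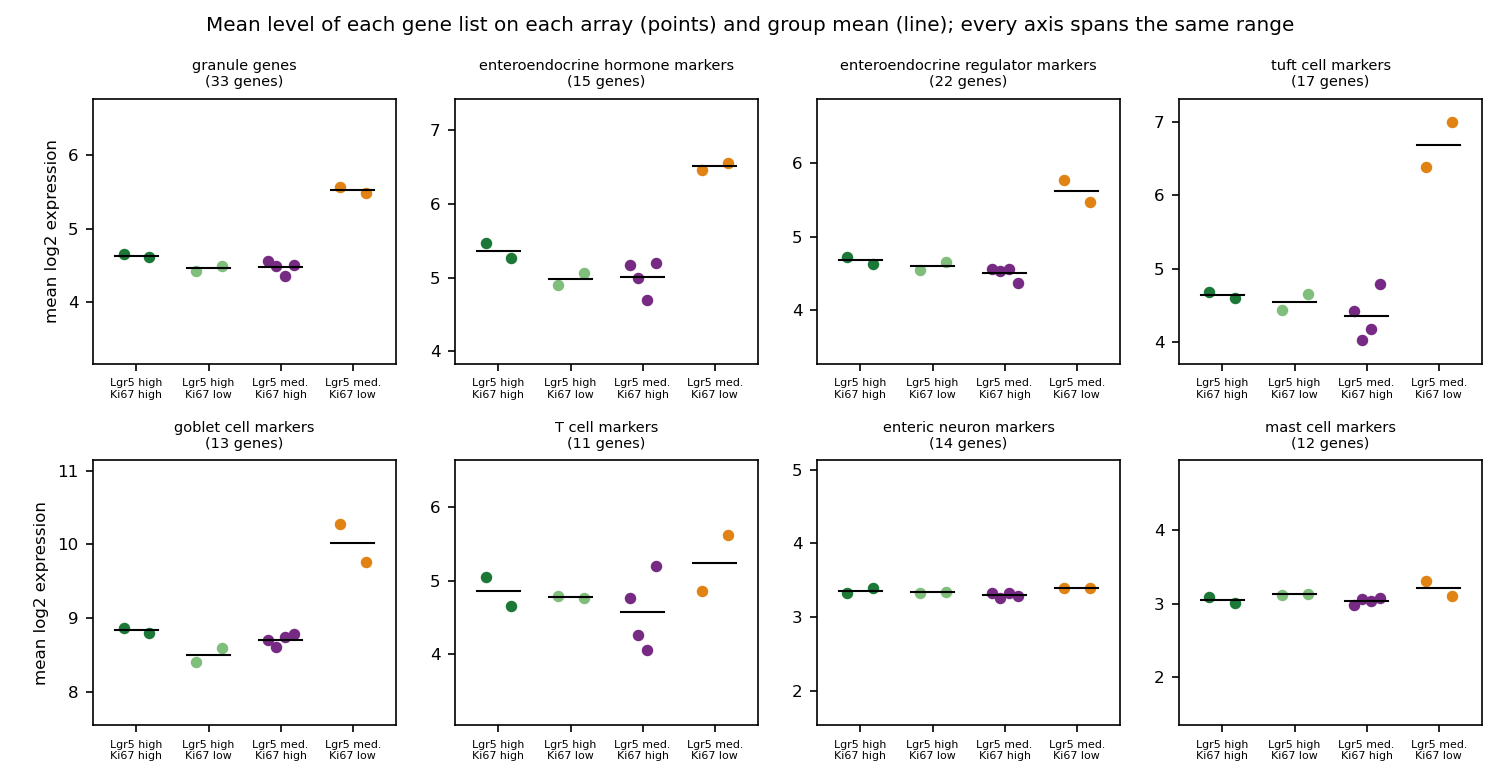
Mean log2 expression of the 33 granule genes and of 7 marker lists (vertical axes, all of the same span) on each array, by sorted group (horizontal axis); points are arrays and lines are group means. Granule genes, hormone genes, regulators, tuft and goblet markers are highest on the 2 Lgr5-medium Ki67-low arrays. The neuron list is also highest there, by a small margin, and stays between 3.26 and 3.40 throughout.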

How the data were processed

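The 33 members, their roles and the other gene lists were chosen with earlier results of these data known. Total RNA of sorted cells was measured on 10 arrays of the Affymetrix type Mouse Gene ST 1.1, per the labels. The authors deposited 1 value per probe set and array (35556 probe sets), read here as log2 from their range; MAS5 and GCOS are named in the submitters' processing notes, with no version or role, and MAS5 needs mismatch probes that this array lacks. Background correction, normalization and log base are therefore unknown here. The values were used as deposited. Probe sets with 1 gene symbol (21218) in the platform table were kept, 1 a gene by the highest mean, leaving 18820 genes; the 33 members matched RefSeq by Entrez number. limma 3.58.1 in R 4.3.3 fitted 1 mean per group to all 10 arrays (6 residual degrees of freedom) with eBayes and Benjamini-Hochberg adjustment within each comparison at 0.05, after tests on simulated data. Per-array values were given for the 2 members of each role with the largest difference between the Lgr5-medium fractions, and other members were named when they passed; per-array values shown besides (Scg2, Scg3, Ddc and others) were chosen after they were seen, as were the marker genes given as examples. The 3 genes with the smallest p were named from each pathway list. The number of arrays limits the precision. Alternatives were other normalizations, filters, probe set rules, array weights, a replicate block, fewer groups, and each array left out. Plots were drawn with matplotlib 3.10.9.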

Additional observations from a re-analysis of the deposited data

Results flagged for a closer look

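The Ki67 difference among Lgr5-high cells, less that among Lgr5-medium cells, passed limma's interaction test for 16 members. Of all genes, 1.03% passed below 0 and 0.0106% above. The 16 are given here with SE and adjusted p. The granins were Chga (-3.32 ± 0.47, 0.00769), Chgb (-3.26 ± 0.27, 0.000666) and Scg3 (-1.78 ± 0.18, 0.00137). The processing enzymes were Cpe (-2.87 ± 0.21, 0.000305) and Pcsk1 (-2.07 ± 0.24, 0.0026). The granule membrane and exocytosis genes were Ptprn2 (-2.56 ± 0.31, 0.0036), Rimbp2 (-2.24 ± 0.27, 0.00339), Cadps (-1.85 ± 0.18, 0.00137), Rab3c (-1.75 ± 0.19, 0.00204), Snap25 (-1.27 ± 0.17, 0.0049) and Syt7 (-1.03 ± 0.19, 0.0289). The amine genes were Tph1 (-3.08 ± 0.50, 0.0159) and Slc18a1 (-1.65 ± 0.23, 0.00768). Scn3a (-0.99 ± 0.14, 0.00867), Abcc8 (-0.93 ± 0.11, 0.0036) and Vwa5b2 (-1.30 ± 0.18, 0.00706) completed the list. The 7 arrays with both Xist and Eif2s3y above 6 leave 1 array in Lgr5-high Ki67-high. There no call was left, among the members or over all genes. The members' median interaction was -0.94 on those 7 arrays and -0.93 as fitted.

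In Lgr5-medium Ki67-high cells, the only group with enough arrays to look for a stray one, Syt7 on replicate 4 (3.77) lay apart from the next array (3.93), with a gap of 0.904 of the group's range, beyond Dixon's critical value. This was 1 member of 33 tested, and chance gives about 1 group in 20.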

How the results depend on the processing

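Limits came from the small number of arrays, the unknown processing of the deposited values and the mixed sexes of the arrays. The members' median between the Lgr5-medium fractions was 0.72 after quantile normalization and 0.71 with arrays centred on their medians, and the median interaction was -0.77 and -0.78. Centring moved the all-gene median of the Lgr5-medium comparison from -0.02 to -0.15, and its split from 499 higher and 175 lower to 417 and 767. Among Ki67-high cells the median Lgr5 difference was 0.0521 after quantile normalization, and 1 member passed with array weights. Leaving out 1 array at a time, the members' median ran from 0.72 to 0.97 between the Lgr5-medium fractions. It ran from -0.98 to -0.70 between Lgr5 levels among Ki67-low cells and from -1.02 to -0.83 for the interaction. The calls changed with the array left out, among the members and over all genes. On the 7 arrays with both Xist and Eif2s3y above 6, a choice made after seeing the data, 14, 14 and 0 passed. Calls over all genes at Lgr5 medium, 674 as fitted, were 352 with the replicate block, 264 without replicate 1 of Lgr5-medium Ki67-low, 373 with only the groups compared and 123 on those 7 arrays.

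Deviations of samples with the same replicate number from their group means had correlations of -0.30 to 0.01. In a group of 2 arrays the deviations are equal and opposite, so crossing its numbers reverses the sign. This check therefore cannot exclude pairing under other numbers. The labels do not say that a replicate number is shared, so the numbers were not taken to pair samples. With the replicate block, 17 members passed between the Lgr5-medium fractions, 20 between Lgr5 levels among Ki67-low cells and 14 for the interaction. Of all genes, 352, 502 and 128 then passed. Crossing the numbers of Lgr5-medium Ki67-low, added after seeing the data, gave 21, 22 and 15 members, and 528, 881 and 180 of all genes.

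Between the Lgr5-medium fractions, between Lgr5 levels among Ki67-low cells and for the interaction, direction changed only for values that did not pass. More members changed sign where none passed as fitted, up to 6 in a setting among Lgr5-high cells and up to 5 among Ki67-high cells. Ranges below are over arrays left out in turn. For Ddc the Lgr5-medium difference was -0.0759 centred and -0.00473 on the 7 arrays (range -0.13 to 0.24), and its interaction 0.11 centred and 0.14 on the 7 arrays (range -0.31 to 0.25). For the Lgr5 difference among Ki67-low cells, Cplx2 was at 0.0157 after quantile normalization and 0.0097 centred (range -0.14 to 0.0165), and Vgf ranged from -0.0552 to 0.0761. The interaction, after quantile normalization and centred, was 0.0054 and 0.0333 for Vgf and 0.0391 and 0.0174 for Rab3a (range -0.29 to 0.0326), and 0.024 centred for Kcnj11. The cause was not tested.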
